A study of Drosophila melanogaster with 2 samples.

Results

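The proteasome subunits of the fruit fly head are described here on 2 oligonucleotide arrays, 1 of paraquat-fed and 1 of unexposed flies. Members were taken by gene symbol from the array's annotation: 14 core genes (Prosalpha and Prosbeta), 6 base ATPase genes (Rpt) and 12 other regulatory subunit genes (Rpn), 32 genes in all. Of the 13966 probe sets that are not controls, 28 named 1 of these genes alone, and together they stood for 26 of the 32 genes, out of 10845 genes that the arrays read with a probe set of their own. Prosbeta1, Rpn9, Rpn10, Rpt1 and Rpt6 had no probe set named for them here, and Prosalpha1 had one that it shares with its relative Prosalpha1R.

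The paraquat array was made from the heads of w1118 males (w118 in the labels, a laboratory stock), collected at adult day 3 after 30 h on sucrose with 15 mM paraquat that began at adult day 2. The unexposed array was made from heads of males of that same strain at adult day 3. Both groups were kept in constant darkness at 25 °C and 70% humidity, about 200 flies to a bottle, and heads were separated from bodies on a sieve. Paraquat, a weedkiller, takes electrons from the cell and passes them to oxygen, which yields superoxide, and the series asks how oxidative stress changes expression in the head. The labels mention food bottles for the unexposed flies. For the paraquat experiment they also describe a control fed plain sucrose, and they do not say whether the unexposed array is that control. If it is not, paraquat and diet cannot be told apart in any ratio below. Each group held 1 array of pooled heads, so no value below has a replicate check and no p-value was computed.

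The proteasome is the large protease that degrades proteins tagged with ubiquitin. Its core is a barrel of outer alpha rings, which gate the entrance, and inner beta rings, which hold the protease sites. The regulatory particle caps the barrel: a ring of Rpt ATPases in its base unfolds substrates and feeds them in, and the Rpn subunits of base and lid bind ubiquitin chains, hold the parts together and remove ubiquitin. Oxidised and misfolded proteins are among its substrates, and in flies and mammals transcription factors of the cap'n'collar family are known to raise transcription of its genes when proteasome activity is short.

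Values are scaled intensities in arbitrary units, set so that both arrays had a median of 825.2 over all probe sets that are not controls. A probe set counted as measured when it reached an intensity of 477.3, the floor, on both arrays, as 7425 probe sets did. Ratios are paraquat over unexposed on the log2 scale, where 1 means 2-fold, and the error given with them is 1 SE of array error, derived from control probe sets. That error leaves out the spread between flies, bottles and RNA preparations, and it may not cover the spread between probe sets of 1 gene. Each subunit ratio below rests on 1 measured probe set.

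Every measured proteasome subunit had more transcript on the paraquat array. All 26 genes that could be read were measured, and the log2 ratio of each was positive. In 19 of them (73.1%) the difference reached 2-fold, and 0 were lower by that much. Across all 7425 measured probe sets, 8.15% reached 2-fold on the higher side, 8.22% did so on the lower side, and 52.1% had a positive ratio. Among the 2119 other measured probe sets whose mean intensity lay within the range of the subunits, 8.45% reached 2-fold on the higher side. The median ratio of the 26 genes was 1.20, or 2.30-fold, against a median of 0.03 over all measured probe sets. Their ratios ran between 0.38 and 1.86, and none of the 26 had a 95% interval of array error that held 0. In bulk heads, a change in RNA per cell cannot be told apart from a change in the number of cells that carry it.

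**Figure D1:**
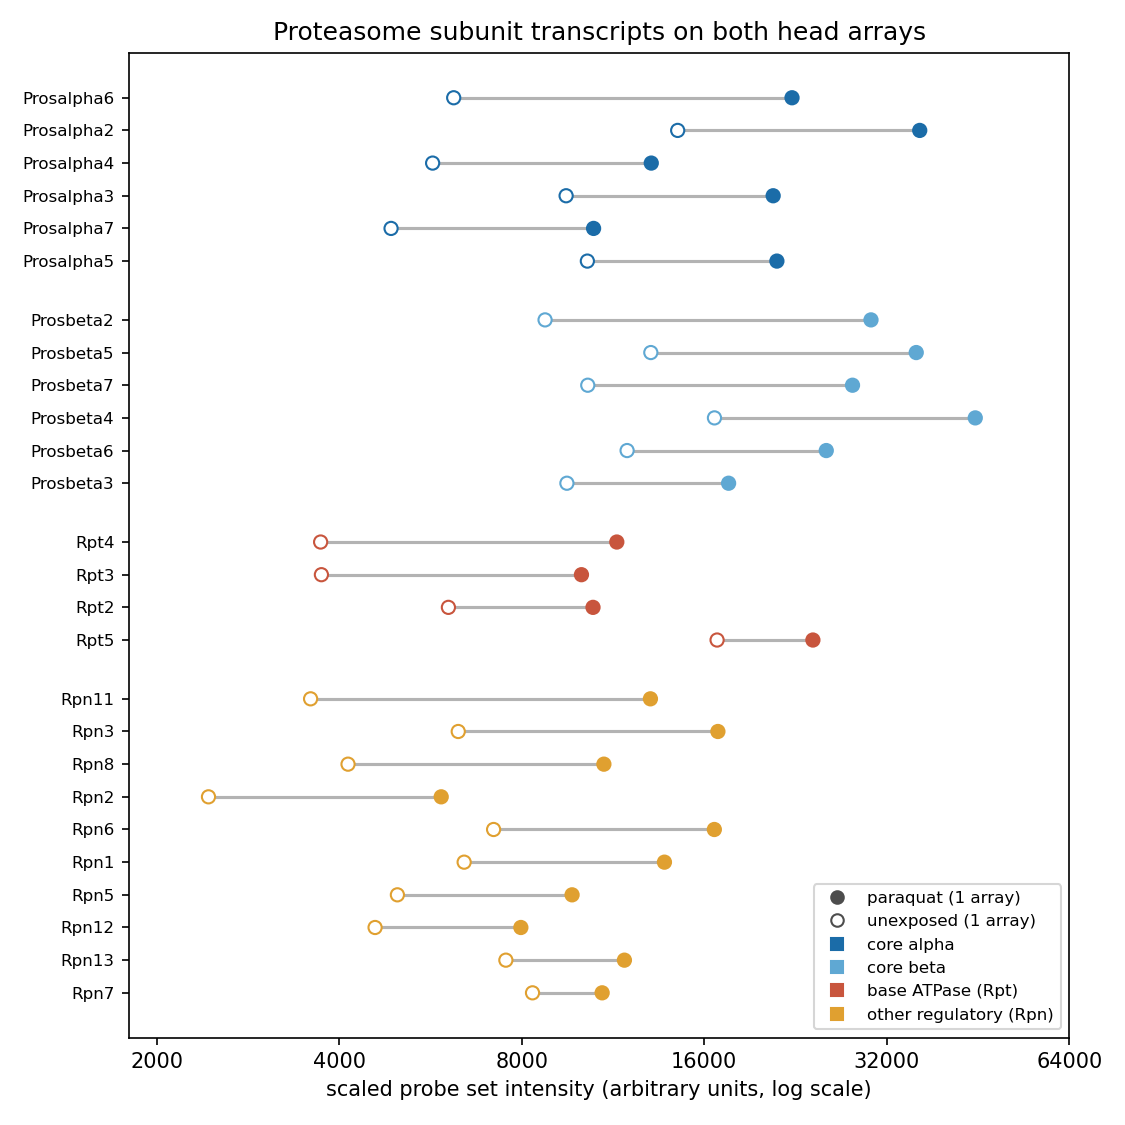
Scaled intensity (horizontal axis, log scale) of the 26 measured proteasome genes, 1 row per gene, with a filled circle for the paraquat array and an open circle for the unexposed array, in 4 colour groups. In every row the filled circle lies to the right of the open one, with long lines for Rpn11 (13044 with paraquat, 3588 without) and Prosalpha6 (22333 with paraquat, 6179 without) and the shortest for Rpn7 (10858 with paraquat, 8335 without).

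In the alpha rings, all 6 measured genes passed 2-fold, and their ratios ran from 1.04 to 1.85 around a median of 1.17. Prosalpha6 stood at 22333 on the paraquat array and 6179 on the unexposed array, a log2 ratio of 1.85 ± 0.14 (3.61-fold). The other 5 lay close together. Prosalpha2 had 36274 on the paraquat array and 14466 on the unexposed array (1.33 ± 0.12). Prosalpha4 had 13085 with paraquat and 5704 without (1.20 ± 0.15). Prosalpha3, whose yeast counterpart carries the tail that closes the gate, had 20790 with paraquat and 9470 without (1.13 ± 0.13). The 95% intervals of array error of these ratios overlap, and the remaining pair lay just under them. Prosalpha7 had 10511 with paraquat and 4871 without (1.11 ± 0.16), and Prosalpha5 had 21086 with paraquat and 10266 without (1.04 ± 0.13). Prosalpha6 exceeded Prosalpha5 by 0.82 ± 0.19 on the log2 scale (95% interval of array error 0.44 to 1.19), a pair taken as the extremes after their values were seen. The probe set shared by Prosalpha1 and Prosalpha1R read 16833 with paraquat and 7384 without, a ratio of 1.19 ± 0.14 that lies inside the range of the alpha genes and cannot be assigned to either gene. A second Prosalpha7 probe set was under the floor on both arrays, at 455.3 with paraquat and 320.3 without, and gives no ratio.

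In the beta rings, 5 of 6 measured genes passed 2-fold, and the median ratio was 1.44. Of the subunits that carry a protease site, Prosbeta2 (trypsin-like activity) had 30145 on the paraquat array and 8742 on the unexposed array, a log2 ratio of 1.79 ± 0.13 (3.45-fold). Prosbeta5 (chymotrypsin-like activity) had 35797 with paraquat and 13063 without (1.45 ± 0.12, 2.74-fold). Both catalytic subunits with a probe set were thus well past 2-fold, and their difference of 0.33 ± 0.18 had a 95% interval of array error from -0.02 to 0.68. The other beta subunits have no protease site and complete the rings. Prosbeta7 had 28101 with paraquat and 10281 without (1.45 ± 0.13). Prosbeta4 had 44793 with paraquat and 16635 without (1.43 ± 0.12). Neither differed from Prosbeta5 by more than array error. Prosbeta6 had 25436 with paraquat and 11938 without (1.09 ± 0.13). Prosbeta3 had 17553 with paraquat and 9498 without (0.89 ± 0.13) and was the 1 core gene short of 2-fold, below Prosbeta2 by a log2 difference whose size was 0.90 ± 0.19, a pair taken as the extremes of the beta genes after their values were seen.

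Prosbeta6 had a second probe set that went the other way. It read -43.8 on the paraquat array and 972.9 on the unexposed array. Taken without array error, this is at least 2.04-fold lower against the floor. Against 533.2, the brightest paraquat-array reading of a probe set that matches no fly RNA, it is at least 1.82-fold lower. The additive part of array error is 358.3, so the reading of 972.9 is not clearly above the floor and neither bound is firm. The paraquat reading of this probe set was under the floor, so it does not enter the Prosbeta6 ratio. Which part of the transcript either Prosbeta6 probe set reads was not known here.

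The base ATPases were split. Rpt4 and Rpt3 were past 2-fold: Rpt4 had 11480 on the paraquat array and 3728 on the unexposed array (1.62 ± 0.19, 3.08-fold), and Rpt3 had 10038 with paraquat and 3739 without (1.42 ± 0.19, 2.68-fold). Rpt2 and Rpt5, whose yeast counterparts have tails that dock into the alpha ring and open the gate, as does that of Rpt3, were under 2-fold. Rpt2 had 10488 with paraquat and 6056 without (0.79 ± 0.15). Rpt5 had 24177 with paraquat and 16802 without (0.53 ± 0.12). The gap between Rpt4 and Rpt5 was 1.10 ± 0.22 (95% interval of array error 0.66 to 1.53), again the extremes of their group and chosen by their values, whereas Rpt3 and Rpt4 differed by less than their array error (-0.20 ± 0.26). The median of the 4 genes was 1.11, with an SD of 0.52 between genes against an array error of 0.16 (root mean square).

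Among the 10 measured Rpn genes, 6 passed 2-fold, the median was 1.15 and the spread was again wide (SD 0.43 between genes, array error 0.17). In the lid, Rpn11, the metalloprotease that cuts ubiquitin chains off the substrate as it enters, had 13044 on the paraquat array and 3588 on the unexposed array (1.86 ± 0.19, 3.64-fold). Rpn11 and Prosalpha6 (1.85 ± 0.14) had the highest ratios of the subunits, and their order is not resolved: Prosalpha6 was above Rpn11 after quantile normalization, after loess and with a pseudocount. Rpn8, its partner in the same dimer, had 10931 with paraquat and 4136 without (1.40 ± 0.18, 2.64-fold). Rpn11 exceeded Rpn8 by 0.46 ± 0.26, with a 95% interval of array error from -0.05 to 0.97. The other lid subunits measured form the scaffold around this dimer, and they covered most of the range. Rpn3 had 16854 with paraquat and 6287 without (1.42 ± 0.15). Rpn6, which clamps the lid to the core, had 16627 with paraquat and 7190 without (1.21 ± 0.14). These were the lid scaffold genes past 2-fold. Rpn5 had 9687 with paraquat and 4989 without (0.96 ± 0.16). Rpn12 had 7974 with paraquat and 4584 without (0.80 ± 0.17). Rpn7 had 10858 with paraquat and 8335 without (0.38 ± 0.14, 1.30-fold) and was the lowest of all 26 subunits. Rpn11 exceeded Rpn7 by 1.48 ± 0.24 (95% interval of array error 1.02 to 1.94) and Rpn3 exceeded it by 1.04 ± 0.20. The probe sets of subunits in 1 subcomplex thus differed by more than array error. These pairs were also taken after their values were seen.

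Of the Rpn subunits of the base, Rpn2, a scaffold that carries the ubiquitin receptor Rpn13, had 5893 on the paraquat array and 2435 on the unexposed array (1.28 ± 0.26). Rpn1, a docking platform for shuttle proteins and the deubiquitinase Usp14, had 13757 with paraquat and 6429 without (1.10 ± 0.15). Rpn13 itself, which binds ubiquitin chains and recruits the deubiquitinase Uch-L5, had 11817 with paraquat and 7533 without (0.65 ± 0.14, 1.57-fold). Rpn2 exceeded Rpn13 by 0.63 ± 0.29 on the log2 scale (95% interval of array error 0.05 to 1.20), a pair chosen after its values were seen.

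**Figure D2:**
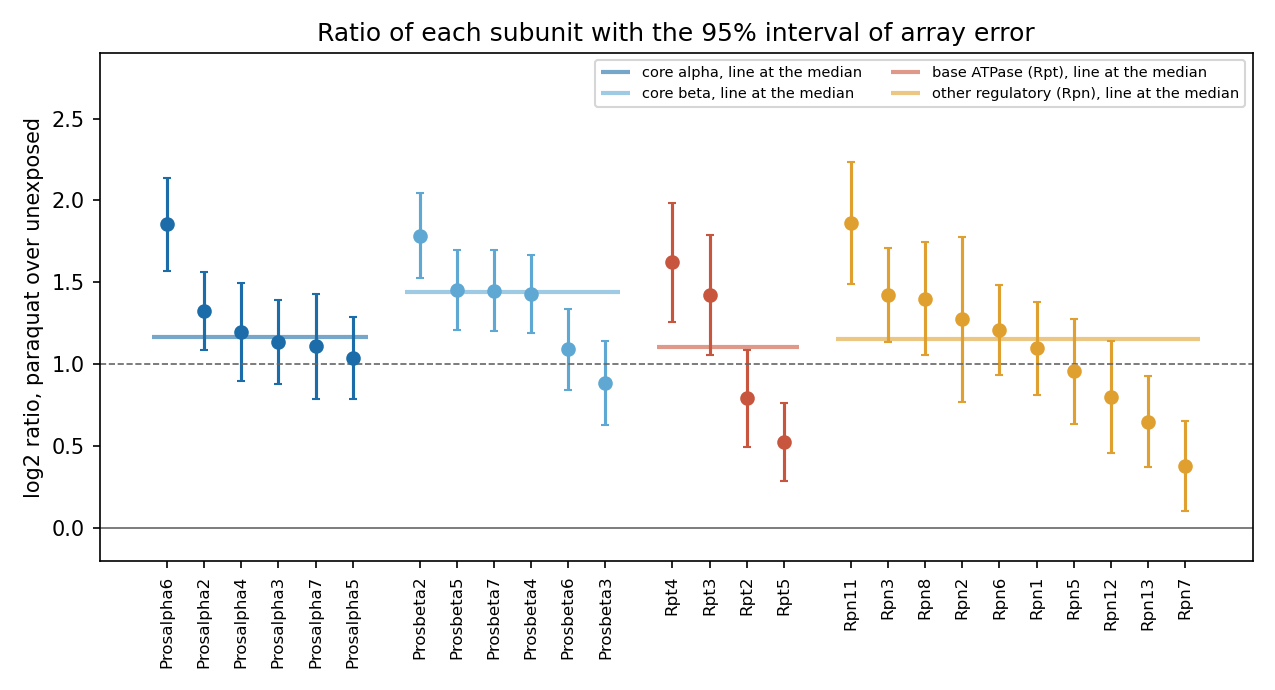
Log2 ratio of paraquat over unexposed (vertical axis) for each of the 26 measured subunits, sorted within 4 groups, with bars for the 95% interval of array error, a coloured line at each group's median, a solid line at 0 and a dashed line at 2-fold. The medians of 1.17 (core alpha), 1.44 (core beta), 1.11 (Rpt) and 1.15 (Rpn) lie close together, while single genes within the Rpt and Rpn groups lie on both sides of the dashed line.

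Set side by side, the core had 11 of 12 genes past 2-fold (91.7%) and a median of 1.26, and the regulatory particle had 8 of 14 (57.1%) and a median of 1.15. When the arrays were scaled on the spiked-in controls, Prosalpha5 (0.94) and Prosbeta6 (0.996) dropped below the line. This left 9 of 12 core genes past it, while the regulatory particle had 8 of 14 there too. Of all measured probe sets, 8.15% passed 2-fold on the higher side, and 6.88% did so when scaled on the spiked-in controls. The core median exceeded that of the Rpt genes by 0.15 and that of the Rpn genes by 0.11, both of the order of the array error of 1 gene. The ranges overlapped: 0.89 to 1.85 in the core, 0.53 to 1.62 for Rpt and 0.38 to 1.86 for Rpn. The SD between genes was 0.30 in the core (array error 0.13) and 0.43 in the regulatory particle (array error 0.17). Genes are not replicates of a condition, so these differences between groups were not tested. Of the 26 genes, 11 had a 95% interval of array error wholly above 2-fold, 12 had one that held 2-fold and 3 (Rpn7, Rpt5 and Rpn13) had one wholly below it. For those 12 genes array error does not settle on which side of 2-fold they lie.

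Within the ranking of all 7425 measured probe sets by ratio, the subunits held places between 104 (Rpn11) and 2057 (Rpn7), with a median place of 399. Across the 26 genes, which share both arrays and their scaling, the correlation of ratio and level was near 0 (Pearson r 0.03 and Spearman rho 0.06 between mean log2 intensity and log2 ratio).

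**Figure D3:**
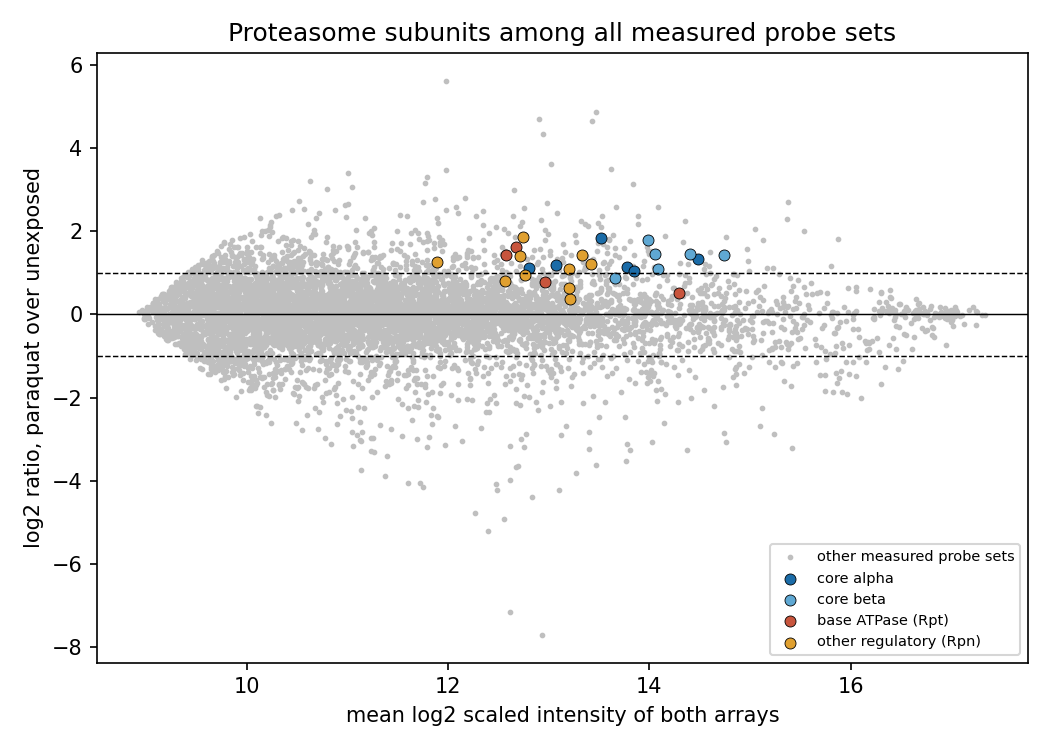
Log2 ratio of paraquat over unexposed (vertical axis) against the mean log2 scaled intensity of both arrays (horizontal axis) for 7425 measured probe sets in grey, with the 26 proteasome genes in 4 colours and dashed lines at 2-fold higher and lower. The coloured points form a band between 0.38 and 1.86 on the upper side of the cloud, at middle to high intensities, with no slope along the horizontal axis (Pearson r 0.03).

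Several subunits have relatives in the fly genome that are known mainly from the testis. Of 15 such genes listed, 12 could be read, and 11 of these were under the floor on both arrays. Rpt4R was the 1 exception, at 497.6 on the paraquat array and 812.8 on the unexposed array (-0.71 ± 1.22), with the paraquat value under 533.2. Apart from Rpt4R, transcripts of these relatives were thus not detectable above background on either array. The additive part of array error is 358.3, so the Rpt4R reading of 812.8 is not clearly above the floor either.

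Proteins that bind, assemble or modify the proteasome were mixed, with a median ratio of 0.64. Past 2-fold were 3 of 7 on the higher side and 0 on the lower side, against 8.15% and 8.22% of all measured probe sets. PI31, which binds the core and was named as an inhibitor of it, had 16260 on the paraquat array and 6325 on the unexposed array (1.36 ± 0.15). Sem1, a small subunit of the lid outside the member list, had 23438 with paraquat and 10446 without (1.17 ± 0.13). Usp14, a deubiquitinase of the regulatory particle, had a mean ratio of 1.01 ± 0.48 over 2 probe sets that read 1.44 ± 0.15 and 0.58 ± 0.95. Pomp, the chaperone that helps to close the beta rings during assembly, had 15409 with paraquat and 9910 without (0.64 ± 0.13). Uch-L5 (0.35 ± 0.49), the activator REG, which caps the core in place of the regulatory particle (0.27 ± 0.16), and CG9588 (-0.17 ± 0.21) had smaller ratios.

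Upstream of the proteasome, ubiquitin itself is made from fusion and repeat genes. None of 4 measured was past 2-fold, with a median of 0.11. Over all measured probe sets, 8.15% passed 2-fold on the higher side and 8.22% on the lower side. The polyubiquitin gene Ubi-p63E had 105489 on the paraquat array and 69569 on the unexposed array (0.60 ± 0.12). Ubi-p5E (0.19 ± 0.12), RpS27A (-0.09 ± 0.12) and RpL40 (0.03 ± 0.12) were close to equal. These genes hold near-identical ubiquitin units, so their probe sets may read each other's transcripts. All 4 read over 60000 on both arrays. Ubi-p5E read 162074 with paraquat, where the highest reading of any probe set was 165113. Whether ratios are narrowed so near the top of the scale was not tested.

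The shuttle and p97 list, proteins that draw ubiquitinated clients out of complexes and membranes and carry them to the proteasome, had all 13 measured genes above 0 and none past 2-fold, with the probe sets of a gene averaged, and a median of 0.54. Of all measured probe sets, 52.1% had a positive ratio and 8.15% passed 2-fold on the higher side. TER94, the p97 ATPase, had 40823 on the paraquat array and 20861 on the unexposed array (0.97 ± 0.12). The p97 cofactor casp had 9997 with paraquat and 5832 without (0.78 ± 0.15). Ufd4, which is a ubiquitin ligase although it stands in this list, had 18889 with paraquat and 11309 without (0.74 ± 0.13), and CG8892 had a mean ratio of 0.73 ± 0.75 over 2 probe sets that disagreed. They read 2.01 ± 0.95 (2280 with paraquat, 567.7 without) and -0.56 ± 1.16 (540.7 with paraquat, 794.7 without), so that by its brighter probe set CG8892 was past 2-fold and above TER94. The shuttle receptor Rad23 had 9707 with paraquat and 6654 without (0.54 ± 0.15).

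The enzymes that attach and remove ubiquitin passed 2-fold in shares under those of all measured probe sets (8.15% higher, 8.22% lower), so these counts show nothing particular to them. None of 8 measured conjugating enzymes (E2) was past 2-fold, with a median of 0.20. The largest ratios were those of CG7656 (0.70 ± 0.23), Ubc6 (0.66 ± 1.15), Ubc2 (0.36 ± 0.23) and vih (0.34 ± 0.78). Of 23 measured ligases and ligase subunits (E3), 1 passed 2-fold in each direction and the median ratio was 0.07. On the higher side this was mahj, a substrate receptor of a cullin ligase (1.47 ± 0.61), on the lower side it was sinah (-1.20 ± 0.75), and Ubr3 (a mean of 0.81 ± 0.36 over 2 probe sets that read 0.08 ± 0.33 and 1.55 ± 0.65) and Nedd4 (0.66 ± 0.21) came next. Of 20 measured deubiquitinases, again 1 passed 2-fold in each direction: Usp5, which takes apart free chains, was higher (1.37 ± 0.95) and the endosomal enzyme Usp8 lower (-1.23 ± 0.16). Uch (0.79 ± 0.21) and CYLD (0.60 ± 0.53) followed and the median was 0.16. Usp8 had 5055 on the paraquat array and 11861 on the unexposed array.

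The cap'n'collar gene cnc itself had a mean ratio of 0.82 ± 0.35 over 3 measured probe sets, which differed widely (0.24 ± 0.47, 0.38 ± 0.50 and 1.85 ± 0.79), and a further probe set was under the floor on the paraquat array, at 127.3 there and 814.6 on the unexposed array. Which cnc transcript forms they read was not known here. Its dimer partner maf-S had 17334 on the paraquat array and 13322 on the unexposed array (0.38 ± 0.13). Its inhibitor Keap1 (-0.10 ± 0.60) and Pngl (0.40 ± 0.50) and rngo (0.09 ± 0.33), relatives of a glycanase and a protease that mature a mammalian cap'n'collar factor, had ratios within array error of 0. The median of the 5 genes was 0.38. None was past 2-fold, against 8.15% of all measured probe sets on the higher side and 8.22% on the lower side.

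**Figure D4:**
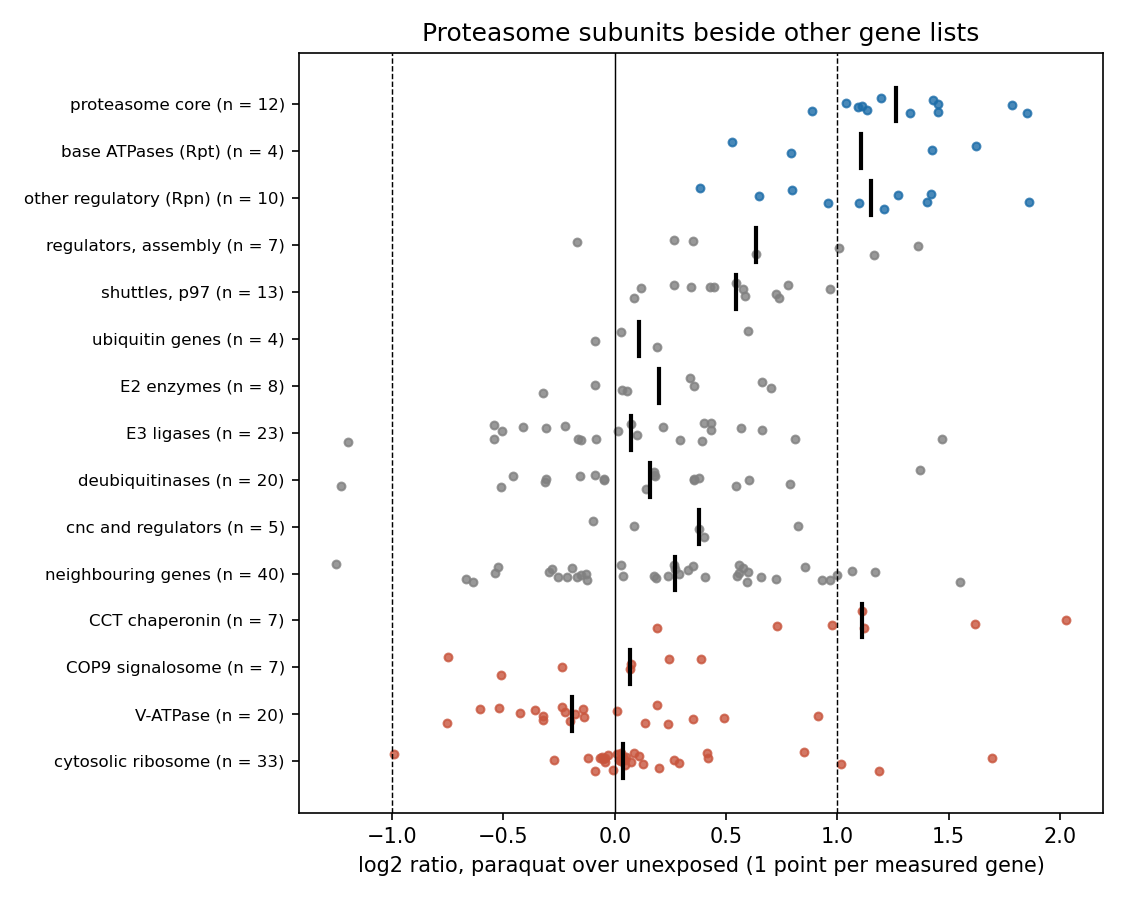
Log2 ratio of paraquat over unexposed (horizontal axis), 1 point per measured gene, with a black bar at each list's median, for the proteasome groups (blue), other genes of the pathway and the genomic neighbours of the subunits (grey) and other large complexes (red). The core, Rpt, Rpn and CCT lists have medians above the dashed 2-fold line (1.26, 1.11, 1.15 and 1.11), and all other lists shown have medians at or below 0.64.

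Among other multi-subunit machines, the CCT chaperonin, which folds actin and tubulin, also had a median past 2-fold. Its 7 measured genes were all positive, 4 of them past 2-fold, around a median of 1.11 and over a range from 0.19 to 2.03. The eighth, CCT7, was under the floor on the unexposed array and read 1239 with paraquat and 333.6 without, at least 2.59-fold higher against the floor. CCT2 was short of 2-fold by its measured probe set (0.98 ± 0.12). Its second probe set was under the floor on the unexposed array and read 3012 with paraquat and 114.9 without. That is at least 6.31-fold higher against the floor, and it does not enter the CCT2 ratio. The COP9 signalosome is built on the same plan as the proteasome lid, and 0 of its 7 measured genes were past 2-fold, with a median of 0.07. CSN6, which is not among the 7, was under the floor on the unexposed array and read 965.7 with paraquat and -397.3 without, at least 2.02-fold higher against the floor. The bounds for CCT7, CCT2 and CSN6 leave out array error. Its additive part is 358.3, so the CSN6 reading is not clearly above the floor. CSN5, the counterpart of Rpn11 in that complex, had 791.8 on the paraquat array and 1129 on the unexposed array (-0.51 ± 0.81). The vacuolar proton ATPase had a median of -0.19 over 20 genes with none past 2-fold. Cytosolic ribosomal genes had a median of 0.04 over 33 genes, of which the 3 past 2-fold were RpS5b, RpLP0-like and RpL24-like. The yeast counterparts of RpLP0-like and RpL24-like act in ribosome assembly. Of the 33 genes, 25 read over 60000 on both arrays, where the highest readings of any probe set were 165113 with paraquat and 169853 without, and whether ratios are narrowed so near the top of the scale was not tested. The brightest subunit, Prosbeta4, stood at 44793 with paraquat. Over all measured probe sets, 8.15% passed 2-fold on the higher side and 8.22% on the lower side. The counts of the COP9, vacuolar ATPase and ribosomal lists are near or under these shares and show nothing particular to them. That of CCT is above them. With 1 array per group, differences between complexes were not tested.

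In the order of RefSeq protein-coding genes (Release 6), none of the 52 genes next to the 26 measured subunits was itself one of the 32. Of the 40 neighbours that were measured, 3 passed 2-fold on the higher side and 1 on the lower side. These shares were near or under those of all measured probe sets (8.15% and 8.22%). The median ratio of the neighbours was 0.27, against 0.03 over all measured probe sets. Ratios were positive for 26 of the 40, against 52.1% of all measured probe sets. The neighbours past 2-fold were Nubp1 beside Prosbeta4 (1.55 ± 0.21), CG1671 beside Prosalpha7 (1.17 ± 0.70), Cerk beside Prosbeta7 (1.07 ± 1.15) and, on the lower side, Vajk4 beside Prosalpha5 (-1.25 ± 0.36). The list of neighbours was added after the subunit values were seen.

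Markers of several tissues also differed between the arrays. The 8 photoreceptor markers with a probe set were all measured, with a summed intensity of 471013 on the paraquat array and 506866 on the unexposed array and a median ratio of -0.11. Of 8 neuronal markers with a probe set 7 were measured, with a summed intensity of 58247 with paraquat and 65391 without and a median of -0.28, and of the 3 probe sets of the active zone gene brp, 2 were under the floor on both arrays and the third reached it with paraquat alone (656.7 with paraquat, 125.8 without). Fat body markers summed to 24752 with paraquat and 305556 without. Of 8 measured, 6 were lower by 2-fold or more, against 8.22% of all measured probe sets. Transcripts of testis and accessory gland, organs outside the head, summed to 7899 with paraquat and 53031 without. Of their 21 probe sets, 3 reached the floor on the paraquat array and 18 on the unexposed array. Of all probe sets that are not controls, 59.9% reached it with paraquat and 59.7% without. Glial markers summed to 110609 with paraquat and 138030 without (median -0.66 over 6), haemocyte markers to 23020 with paraquat and 38511 without (-0.91 over 9). Gut markers summed to 33386 with paraquat and 43396 without (-0.61 over 7), and muscle markers to 142973 with paraquat and 216338 without (-0.29 over 10). Mlc2 alone, at 29008 with paraquat and 104443 without, fell by more than the muscle sum did. Ratios were above 0 for 1 of 6 glial markers (loco, 1.84), 2 of 9 haemocyte markers and 1 of 7 gut markers (Amy-d, 1.42). In muscle they were above 0 for 3 of 10, Zasp66 (0.88) among them. The 18S ribosomal RNA controls had log2 ratios between -1.01 and -0.92. Control probe sets along 3 messenger RNAs bear on RNA integrity and labelling, and their 5′ and middle ratios all exceeded the 3′ ratio: by 0.37 and 0.51 for actin, 0.14 and 0.33 for GAPDH and 0.25 and 0.21 for eIF-4a. Array error was not computed for these 5′ and middle differences. The actin 5′ probe set read 578.3 with paraquat and 572.8 without, near the floor, so its 0.37 is not resolved. Even bright controls have an error of 0.12 per ratio, which is not small beside the GAPDH and eIF-4a differences. The part of these marker and control differences in the proteasome ratios was not tested.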

How the data were processed

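Poly(A) RNA from heads was hybridised to Affymetrix DrosGenome1 arrays, per the labels' protocols, 1 per group, and sample titles gave the groups. The authors deposited linear probe set intensities, some of them negative. Both arrays have a mean of 2500 once the top and bottom 2% of values are trimmed, so the authors scaled them to that target. The sources used here do not name the software that summarised the probes. Precision is limited by the number of arrays.

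Each array was scaled to a common median over 13966 probe sets (factors 0.99 for paraquat, 1.01 for unexposed, from deposited medians of 834.8 and 815.6), floored at 477.3 (the 40th percentile of array means per probe set), and put on the log2 scale. Genes with several measured probe sets took their mean ratio. Array error joins the SD of 46 intensities of absent controls (358.3) and the SD of log2 ratios over 9 spiked-in controls (0.12). The steps were tested on simulated data (Python 3.11.15, numpy 2.4.6, pandas 2.3.3, scipy 1.17.1, statsmodels 0.14.6).

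Gene names came from the platform's annotation of 2016. Of the 13966, 12443 had 1 gene symbol, 327 several and 1196 none, and identifiers of 12394 matched RefSeq Release 6, which was used for names and gene order alone. All 32 members matched. Members, lists and the 2-fold line were chosen with earlier results of these data known. Named were all members and, in each list of the pathway, up to 4 genes with the largest absolute ratio. Named besides, after their values were seen, were CSN5, Rad23, Uch-L5, REG, CG9588, the rest of the cnc list, brp and loco. The same holds for Amy-d, Mlc2, Zasp66, CSN6, CCT7, CCT2, 3 ribosomal genes and 4 neighbouring genes. A planned promoter motif search was not run, because promoter sequences were not used here. Alternatives were deposited scaling, quantile normalization, loess, higher floors, a pseudocount, the brightest probe set and, added after seeing the data, scaling on the spiked-in controls.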

Additional observations from a re-analysis of the deposited data

How the results depend on the processing

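Under all 8 alternative settings, every subunit that was still measured kept a log2 ratio above 0 (206 of 206 values), and 205 of these values moved by less than array error. The exception was Prosbeta4, at 1.56 after quantile normalization against 1.43. Most of these values could not move far. No subunit had several measured probe sets, so the higher floors and the brightest probe set leave each ratio as it was. Deposited scaling and scaling on the spiked-in controls each shift all ratios by the same small amount. Quantile normalization, loess and the pseudocount alone could change single ratios apart from the rest. The count of subunits at least 2-fold higher stayed between 17 and 19. It was 17 of 24 with the floor at the 80th percentile, where Rpn2 and Rpn11 were no longer measured, and 17 of 26 when scaled on the spiked-in controls, where Prosalpha5 and Prosbeta6 were under 2-fold. Medians ran from 1.17 to 1.33 in the core, 1.01 to 1.14 for Rpt and 1.03 to 1.19 for Rpn. Of the comparison lists, the ubiquitin genes alone moved beyond array error (root mean square), to 0.28 after loess against 0.11. The ribosomal genes, which share RpL40 and RpS27A with that list, moved to 0.20 after loess against 0.04. Their shift was under their root mean square error (0.24) but over their median error (0.12). The cause of these shifts was not tested. With the floor at the 80th percentile, fewer genes of each list were measured. The E2 median was then -0.13 over 2 genes, against 0.20. For proteins that bind, assemble or modify the proteasome it was 0.90 over 6 genes, against 0.64. Both of these shifts were under the root mean square errors (0.53 and 0.29) but over the median errors (0.24 and 0.16). Over all measured probe sets, 605 passed 2-fold on the higher side, against 290 with the floor at the 60th percentile and 132 at the 80th, where fewer probe sets (4846 and 2322) were measured, and 361 with the pseudocount, which narrows ratios of dim probe sets. Those past 2-fold on the lower side numbered 610, against 317, 156 and 416. The promoter search and its alternative were not run. No paired analysis was possible because each group held 1 array, and no replicate could be left out. Array error exceeds 0.5 for dim genes such as Ubc6, vih, Usp5 and sinah, whose ratios these arrays cannot resolve.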
